A study of Mus musculus with 4 samples.

Results

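The Cyp3a subfamily of cytochrome P450 enzymes was followed across 4 libraries of mouse liver RNA. The 8 genes Cyp3a11, Cyp3a13, Cyp3a16, Cyp3a25, Cyp3a41a, Cyp3a41b, Cyp3a44 and Cyp3a59 were taken by symbol from the 25239 genes listed for each library, because this subfamily oxidises pyrrolizidine alkaloids. The files hold 9 genes whose symbol starts with Cyp3a; the remaining one, Cyp3a57, had 0 counts in 3 libraries and 1 count in control replicate 2. The mice were of the strain C57BL/6 and aged 6 to 8 weeks. The control group (2 libraries) received normal saline, and the extract group, titled PAs group in the labels (2 libraries), received Gynura segetum extract at 30 g/kg/d for 3 weeks into the stomach, from a preparation concentrated to 2 g/mL. The labels name no genetic change in either group, no sex, no collection time and no alkaloid content of the extract. They do not say that the libraries are from separate mice, so the p-values reflect the spread between libraries, which may be technical. Below, values under saline are those of control replicates 1 and 2 and values under extract those of extract replicates 1 and 2, in that order.

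Gynura segetum is a medicinal plant rich in pyrrolizidine alkaloids, which are not reactive as eaten. In liver, P450 enzymes of the CYP3A type remove hydrogen from the ring system and make reactive pyrroles that bind protein and DNA, a route known chiefly from human and rat enzymes. The P450 sits in the endoplasmic reticulum, needs haem, and is fed electrons by the reductase Por, with help from cytochrome b5 (Cyb5a). Competing steps remove the alkaloid or its pyrrole: carboxylesterases cleave the ester, and glutathione transferases conjugate the pyrrole. In mouse liver, Cyp3a11 is the main adult Cyp3a enzyme and a target of the xenobiotic receptor PXR (Nr1i2). Cyp3a41a, Cyp3a41b and Cyp3a44 are known as female-biased liver genes, and Cyp3a16 as a gene of the fetal and newborn liver.

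The most abundant Cyp3a transcript, Cyp3a11, and the much scarcer Cyp3a59 were higher in the extract libraries, with log2 fold changes of 0.85 and 1.40. Since no collection time is given, time of day and the extract cannot be told apart in these differences. Cyp3a25 and Cyp3a13 lay above both control libraries in both extract libraries but did not pass the test. Cyp3a16, Cyp3a41a and Cyp3a44 differed more between the control libraries than between the groups, and Cyp3a41b had 0 counts throughout. With all 8 genes summed, Cyp3a took 0.497% and 0.418% of gene counts under saline and 0.831% and 0.883% under extract.

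Of the 8 genes, 7 lie in a cluster on chromosome 5 and Cyp3a13 lies apart on the same chromosome, at chr5:137892933-137925610 (minus strand). The positions are those of RefSeq on GRCm38.p6, the assembly also called mm10, which the submitters' processing notes name. In the order of the coordinates the cluster holds Cyp3a16 (chr5:145436309-145469740), Cyp3a41b (chr5:145558664-145584732), Cyp3a41a (chr5:145694049-145720136), Cyp3a44 (chr5:145773983-145805891), Cyp3a11 (chr5:145854607-145879854) and Cyp3a25 (chr5:145977192-146009644), all on the minus strand, and Cyp3a59 (chr5:146079208-146114978) on the plus strand. Each has 13 exons in its first annotated transcript, and no other RefSeq gene overlaps any of the 8. HTSeq, also named in those notes, usually counts reads over the exons of a gene, and the sources used here do not give its settings.

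The upstream sequences show how alike the members are where their transcription starts. All 8 genes matched the RefSeq promoter table (GRCm38.p6), and 6 of the 8 windows of 250 bases before the listed start are printed, 5′ to 3′ on the strand of the gene: Cyp3a11 and Cyp3a25 with its near copy Cyp3a59, which lay higher in both extract libraries, and Cyp3a16, Cyp3a41a and Cyp3a44, which were high in control replicate 2. The windows are chr5:145879855-145880104 (minus), chr5:145469724-145469973 (minus), chr5:145720137-145720386 (minus), chr5:145805875-145806124 (minus), chr5:146009619-146009868 (minus) and chr5:146079008-146079257 (plus). Capitals mark exact matches, on either strand, to CAAAGTCCA (a direct repeat of the type bound by HNF4), TGTTTAC (a forkhead motif) and AAGGTCA (a nuclear receptor half-site, which reads TGACCTT on the opposite strand).
Cyp3a11: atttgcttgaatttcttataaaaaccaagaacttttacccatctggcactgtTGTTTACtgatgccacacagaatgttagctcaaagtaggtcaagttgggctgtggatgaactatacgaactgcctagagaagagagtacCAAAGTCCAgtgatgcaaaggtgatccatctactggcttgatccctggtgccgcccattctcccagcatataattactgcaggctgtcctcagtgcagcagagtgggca
Cyp3a16: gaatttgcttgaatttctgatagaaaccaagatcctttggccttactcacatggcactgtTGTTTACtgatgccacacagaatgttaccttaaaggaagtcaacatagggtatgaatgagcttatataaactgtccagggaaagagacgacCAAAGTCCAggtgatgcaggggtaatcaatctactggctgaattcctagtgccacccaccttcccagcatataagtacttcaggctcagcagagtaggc
Cyp3a41a: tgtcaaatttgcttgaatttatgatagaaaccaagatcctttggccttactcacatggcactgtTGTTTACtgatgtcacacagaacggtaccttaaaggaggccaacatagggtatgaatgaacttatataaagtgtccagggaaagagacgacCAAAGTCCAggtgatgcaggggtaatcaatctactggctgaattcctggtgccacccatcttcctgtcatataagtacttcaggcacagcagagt
Cyp3a44: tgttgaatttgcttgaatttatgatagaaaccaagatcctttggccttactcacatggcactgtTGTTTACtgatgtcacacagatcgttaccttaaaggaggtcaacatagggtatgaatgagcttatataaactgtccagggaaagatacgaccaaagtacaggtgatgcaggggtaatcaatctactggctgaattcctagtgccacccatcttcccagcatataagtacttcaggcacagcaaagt
Cyp3a25: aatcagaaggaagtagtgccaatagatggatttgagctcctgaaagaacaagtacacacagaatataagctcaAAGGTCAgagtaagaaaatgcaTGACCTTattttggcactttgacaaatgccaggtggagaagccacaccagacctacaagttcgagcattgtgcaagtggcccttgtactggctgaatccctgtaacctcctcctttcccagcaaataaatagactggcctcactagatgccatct
Cyp3a59: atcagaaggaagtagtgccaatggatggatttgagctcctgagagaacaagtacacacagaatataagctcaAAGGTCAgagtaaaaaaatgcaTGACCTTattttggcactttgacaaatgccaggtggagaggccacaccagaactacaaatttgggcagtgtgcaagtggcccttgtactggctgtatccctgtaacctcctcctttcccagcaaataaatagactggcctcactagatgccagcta

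The window of Cyp3a41a was 94.42% identical to that of Cyp3a44 and 91.37% identical to that of Cyp3a16, and differed from that of Cyp3a41b at 1 position. Cyp3a25 and Cyp3a59 shared 94.82% of their windows, and Cyp3a11 was nearest to Cyp3a16, with 77.07%. Cyp3a13 had 53.2% to 59.6% identity to the others, and Cyp3a25 and Cyp3a59 were at a like level, 56.55% to 58.36%, against the rest of the cluster. The Cyp3a13 window (chr5:137921620-137921869, minus) lies inside the span given above for that gene, so its listed start is an inner one. Those of Cyp3a16, Cyp3a41b, Cyp3a44, Cyp3a25 and Cyp3a59 reach into the ends of their spans. CAAAGTCCA, found in 0.381% of 27025 promoter windows of 250 bases, occurred once in Cyp3a11 (first base at -109), Cyp3a16 (-99), Cyp3a41a and Cyp3a41b (-95), and not in Cyp3a44, Cyp3a13, Cyp3a25 or Cyp3a59. TGTTTAC, found in 3.09% of promoters, occurred once in Cyp3a11, Cyp3a16, Cyp3a41a, Cyp3a41b and Cyp3a44. AAGGTCA, found in 4.05%, occurred 2 times each in Cyp3a25 and Cyp3a59. TGAACT, the half-site of the known PXR elements, is in 11.9% of promoters and occurred once in Cyp3a11 (-142), Cyp3a41a and Cyp3a41b (-130). Its exact paired forms TGAACTNNNNNNAGTTCA (ER6) and TGAACTNNNTGAACT (DR3) were in 2 and 0 of the 27025 promoter windows and in none of the 8. Strings this rare would be missing from nearly any 8 windows, so their absence does not tell whether PXR elements are present. A match describes letters only, and says nothing of binding in these livers.

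Because the genes are near copies, the length of transcript that can be assigned to 1 gene was measured on GENCODE vM21 (GRCm38). Cyp3a13 and, at 150 bases, Cyp3a11, Cyp3a16 and Cyp3a44 could be assigned in full. Of windows of 50 bases, 85.2% were found in no other gene for Cyp3a11, 89.3% for Cyp3a16, 73.6% for Cyp3a44, 73.2% for Cyp3a25 and 72.0% for Cyp3a59. The transcripts of Cyp3a25 and Cyp3a59 were 96.55% identical, and of their windows of 100 bases 94.0% and 94.4% were found in 1 gene only. Cyp3a41a and Cyp3a41b were 99.71% identical: at 50, 100 and 150 bases, 1.39%, 9.18% and 17.1% of the windows of Cyp3a41a were its own, and 6.50%, 11.8% and 17.3% of those of Cyp3a41b. Alignments with more than 1 place, a class of its own in the files, took 6.70% and 9.03% of records under saline and 5.18% and 5.33% under extract. The counts of Cyp3a41a and Cyp3a41b are therefore uncertain, and those of Cyp3a25 and Cyp3a59 less so. The sources used here do not give the read length.

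**Figure D1:**
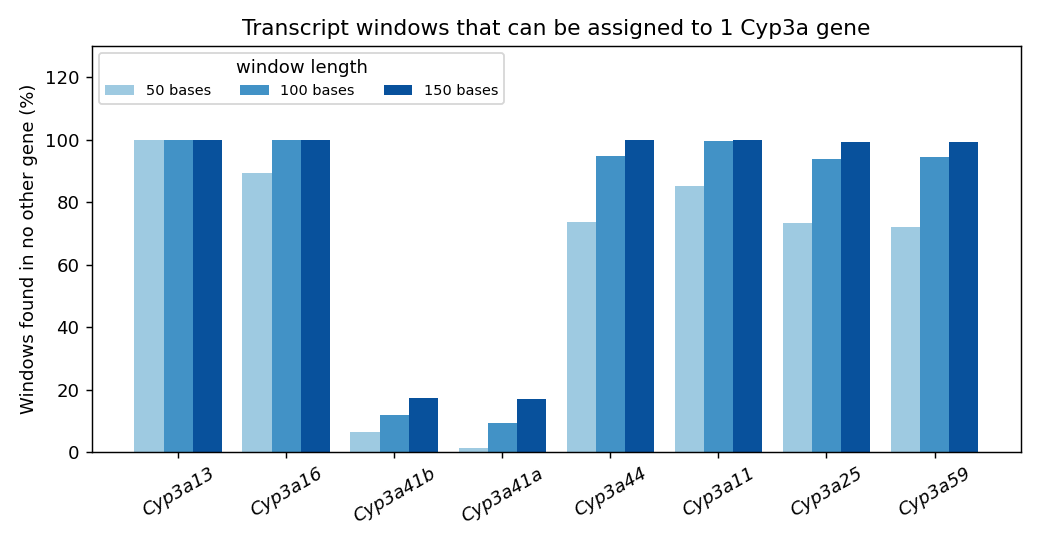
Share of transcript windows (%, y axis) found in no other gene, for each of the 8 Cyp3a genes (x axis) and windows of 50, 100 and 150 bases (bars). Cyp3a41a and Cyp3a41b stand out with at most 17.3%, while the other 6 genes reach at least 99.3% at 150 bases.

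Gene counts came to 49711750 and 32215268 in control replicates 1 and 2 and to 40013188 and 45754235 in extract replicates 1 and 2. Levels are given as CPM, the reads of a gene scaled to 1e6 reads, on library sizes scaled by the trimmed mean of M-values (TMM), so 1 read is worth 0.0208 to 0.0337 CPM. Hepatocyte markers were abundant in all 4 libraries: the 13 hepatocyte markers on the list summed to 181328 and 194201 CPM under saline and 121357 and 128557 CPM under extract. Xist lay between 754 and 1073 CPM in all 4 libraries, and the Y-linked genes Ddx3y, Eif2s3y, Kdm5d and Uty had 0 counts in all 4. By these genes all 4 libraries read as female. With 2 libraries a group and a biological coefficient of variation of 22.3%, the edgeR step recovered 32% of genes changed 2-fold and 2% of genes changed 1.5-fold in simulated libraries of 13963 genes.

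Compared per kilobase of transcript (RPKM, CPM divided by the length in kilobases of the longest coding transcript), Cyp3a11 was the leading Cyp3a transcript in every library. Its RPKM level was 1841 and 1405 under saline and 2788 and 3058 under extract. By count it stood at ranks 23, 31, 7 and 7 of all genes. Cyp3a25 came next in every library, at 279 and 268 RPKM under saline and 349 and 439 RPKM under extract. Cyp3a13 followed at 58.6 to 76.6 RPKM, and Cyp3a59 lay between 16.0 and 62.5 RPKM. In control replicate 2, Cyp3a44 (119 RPKM) and Cyp3a41a (90.2 RPKM) lay above Cyp3a13 (58.6 RPKM), whereas in control replicate 1 they lay at 6.80 and 2.58 RPKM. The order of Cyp3a11, Cyp3a25 and Cyp3a13 was the same in all 4 libraries, while the places of Cyp3a16, Cyp3a41a, Cyp3a44 and Cyp3a59 changed with the library. As few windows of Cyp3a41a are its own, its count and thus its place are uncertain.

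**Figure D2:**
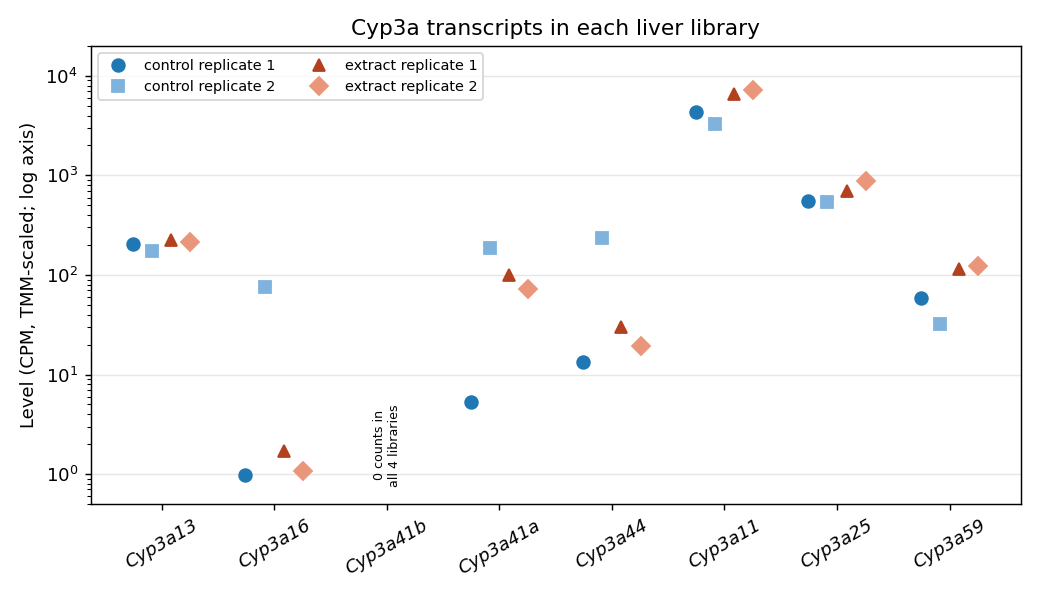
Level of each Cyp3a gene (CPM on TMM-scaled library sizes, log y axis) in the 2 control and 2 extract libraries (1 point per library), with genes in the order of chromosome 5. Cyp3a13, Cyp3a11, Cyp3a25 and Cyp3a59 have both extract points above both control points, and Cyp3a16, Cyp3a41a and Cyp3a44 have control replicate 2 far above control replicate 1.

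The comparison of extract with saline asks how far the enzymes that activate the alkaloid differ in liver after repeated dosing with it. Of the 8 genes, 7 had enough counts to be tested, 2 were higher, 0 were lower and 5 did not pass an adjusted p of 0.05 in edgeR's quasi-likelihood test, adjusted after Benjamini and Hochberg over 13963 genes. Over all genes tested, 4.91% were higher and 3.63% lower by the same rule. DESeq2's Wald test called 1027 higher and 909 lower of the 14538 genes it tested. The unadjusted p was under 0.05 for 3 of the 7, Cyp3a11, Cyp3a25 and Cyp3a59, all higher, and DESeq2 and limma-voom also called 0 members lower. The share of all genes with an unadjusted p under 0.05 was not counted. This count and the like counts given below for other lists therefore have no background. In 4 of the 7 both extract libraries lay above both control libraries, as they did for 27.6% of all genes tested, and in 0 both lay below, against 26.7%. The median log2 fold change of the 7 was 0.23, and that of all genes tested was -0.005. In whole liver, fewer cells of a type and less RNA per cell cannot be told apart.

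Cyp3a11 had 207028 and 97888 counts in control replicates 1 and 2 and 281953 and 341566 in extract replicates 1 and 2. These were levels of 4315 and 3294 CPM under saline and 6535 and 7167 CPM under extract. Both extract libraries were higher than both control libraries, and the gap between the groups was larger than the spread within either. The means were 3804 ± 722 CPM under saline and 6851 ± 447 CPM under extract (SD, n = 2 each), a log2 fold change of 0.85 (SE 0.19) with an edgeR adjusted p of 0.0416. The call was lost without extract replicate 1 (0.90, adjusted p = 0.179), without extract replicate 2 (0.76, adjusted p = 0.272) and without the robust step of the fit (adjusted p = 0.0569).

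Cyp3a59 showed the larger proportional difference at a far lower level than Cyp3a11. Its levels were 58.9 and 31.9 CPM under saline and 115 and 124 CPM under extract, from 2826, 949, 4976 and 5923 counts. The groups did not overlap, and the control libraries were farther apart than the extract libraries. The means were 45.4 ± 19.1 and 120 ± 6.33 CPM (SD, n = 2 each), a log2 fold change of 1.40 (SE 0.29) with an edgeR adjusted p of 0.0399. The adjusted p was 0.0980 without extract replicate 1 and 0.126 without extract replicate 2, and the fit with the replicate number as a block gave 1.46 with an adjusted p of 0.0533.

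Cyp3a25, the second Cyp3a transcript of these livers and the near copy of Cyp3a59, lay at 557 and 537 CPM under saline and 698 and 878 CPM under extract. The extract libraries were both above the control pair, which itself differed little, and were farther from each other than the lower of them was from the control. The log2 fold change was 0.53 (SE 0.17, edgeR adjusted p = 0.111, unadjusted p = 0.0160), so it did not pass over all genes. It passed in DESeq2's Wald test (adjusted p = 0.0359), with total counts as the library sizes (0.0447), without control replicate 1 (0.0219) and without control replicate 2 (0.0320). With the counts of Cyp3a25 and Cyp3a59 summed before the fit, the log2 fold change was 0.62 with an edgeR adjusted p of 0.0711. The sum keeps reads counted for the wrong copy. It does not restore alignments set aside for having more than 1 place. The summed copies had 616 and 568 CPM under saline and 813 and 1003 CPM under extract, so the pair lay higher in both extract libraries and did not pass.

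Cyp3a13, the member outside the cluster, varied least among the 7 tested. Its levels were 202 and 173 CPM under saline and 226 and 215 CPM under extract. The groups did not overlap, but the gap between them was smaller than that between the control libraries. The log2 fold change of 0.23 (SE 0.15, edgeR adjusted p = 0.403) did not pass the threshold in any of the 15 alternative settings tried.

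Cyp3a41a, Cyp3a44 and Cyp3a16 were not called with all 4 libraries, and their values depended on which control library was taken. Cyp3a41a had 255 and 5521 counts under saline and 4299 and 3417 under extract, or 5.31, 185.8, 99.6 and 71.7 CPM. Both extract libraries lay between the control libraries. The log2 fold change was -0.15 with an SE of 1.83 (edgeR adjusted p = 0.976).

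Cyp3a44 had 640 and 6941 counts under saline and 1287 and 916 under extract, or 13.3, 233.6, 29.8 and 19.2 CPM. The extract libraries lay just above control replicate 1 and far below control replicate 2. The log2 fold change was -2.33 with an SE of 1.65 (edgeR adjusted p = 0.534).

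Cyp3a16 had 47 and 2236 counts under saline and 73 and 51 under extract, or 0.980, 75.2, 1.69 and 1.07 CPM. Control replicate 2 stood alone, and the other 3 libraries were under 2 CPM. The log2 fold change was -4.78 with an SE of 2.52 (edgeR adjusted p = 0.414).

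Cyp3a41b had 0 counts in all 4 libraries. Counting error alone allows 3 counts each, or up to 0.0625 and 0.101 CPM under saline and 0.0695 and 0.0629 CPM under extract, for reads that have a single place in the genome. No fold change was formed for it. The total of Cyp3a41a and Cyp3a41b is the count of Cyp3a41a, and how the reads that both genes share were placed was not tested.

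Leaving out 1 control library turned the calls of these 3 genes. Without control replicate 1, Cyp3a16 (-5.78), Cyp3a41a (-1.12) and Cyp3a44 (-3.25) were each past the threshold as lower in extract, so that 3 members were lower, where 9.96% of all genes were lower by the same rule. Cyp3a11, Cyp3a25 and Cyp3a59 were past it as higher, 3 members where 12.8% of all genes were higher. Without control replicate 2, Cyp3a41a (4.01) and Cyp3a44 (0.88) were past it as higher and Cyp3a16 (0.49, edgeR adjusted p = 0.610) was not past it. In that fit 5 members were higher, where 12.4% of all genes were higher and 12.2% lower. Without extract replicate 1, 0 members were past the threshold, against 1.61% of all genes higher and 0.929% lower, and without extract replicate 2, 0 members, against 2.15% higher and 1.17% lower. In such a fit the lone library is assumed to vary like the pair in the other group. Cyp3a11 and Cyp3a59 kept their direction in all 4 of these fits, with log2 fold changes of 0.67 to 1.06 and 1.03 to 1.91.

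**Figure D3:**
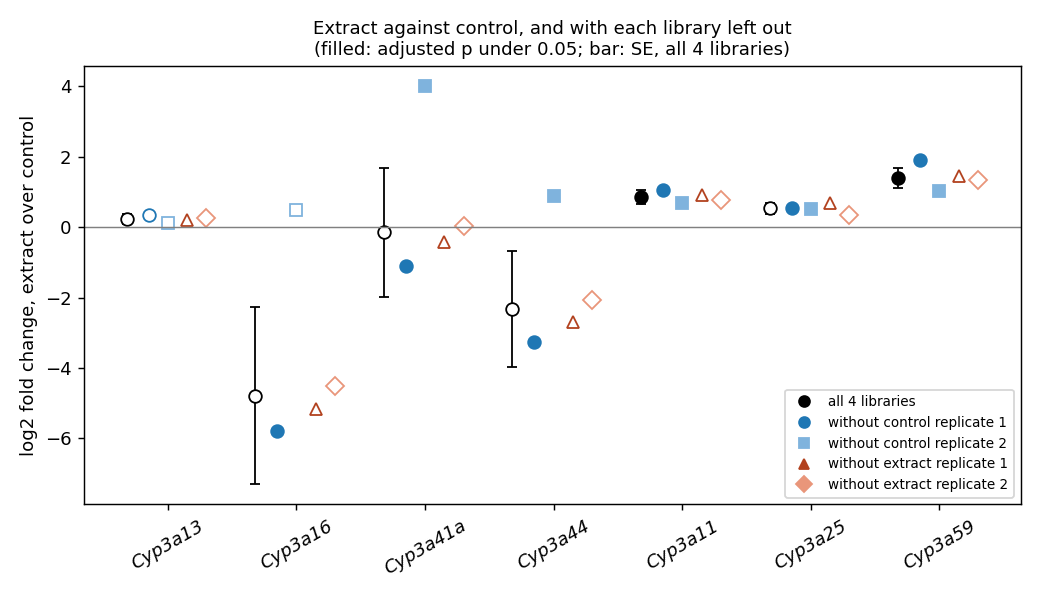
Log2 fold change of extract over control (y axis) for the 7 tested Cyp3a genes (x axis) with all 4 libraries (black, bar = SE) and with each library left out (coloured), filled where the edgeR adjusted p was under 0.05. The points of Cyp3a11 and Cyp3a59 stay above 0, whereas Cyp3a41a runs from -1.12 to 4.01 and Cyp3a44 from -3.25 to 0.88.

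The control libraries were far apart in 3 of the 8 genes. Cyp3a16 was 76.8-fold, Cyp3a41a 35.0-fold and Cyp3a44 17.5-fold higher in control replicate 2 than in control replicate 1. Among 8341 tested genes with at least 10 CPM in either control library, ranked by log2(CPM + 1) from the highest in control replicate 2, they stood at places 3, 6 and 8, and on the CPM + 1 scale 13 genes in all were over 10-fold higher in that library. The median size of the difference between the control libraries was 0.21 on the log2 scale over these genes, and that between the extract libraries 0.13. Cyp3a11, Cyp3a25 and Cyp3a59, next in the cluster, were not higher in control replicate 2: its levels were 0.763, 0.963 and 0.542 times those in control replicate 1. The extract libraries agreed more closely, with ratios of 1.58 for Cyp3a16, 1.39 for Cyp3a41a and 1.55 for Cyp3a44 between the higher and the lower.

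**Figure D4:**
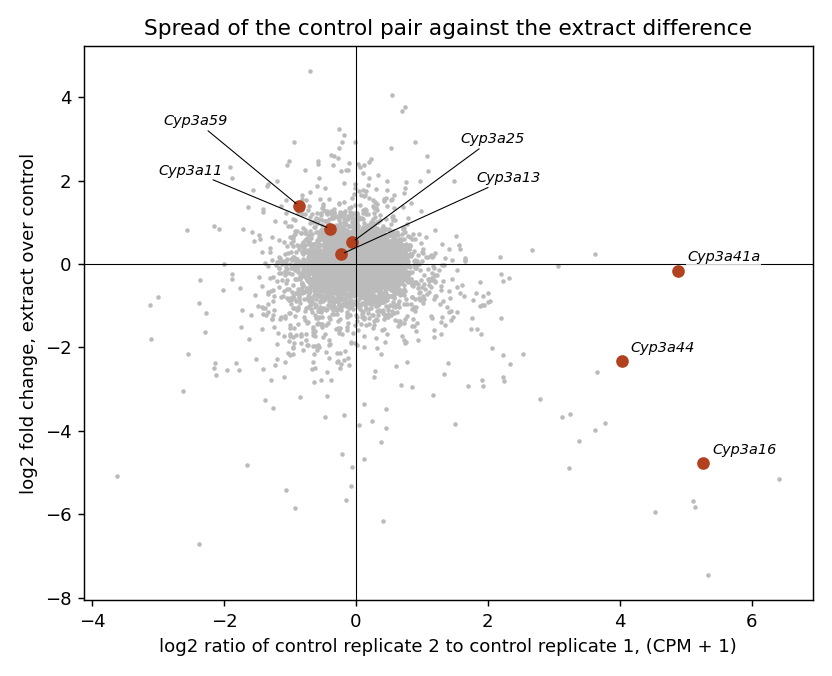
Each grey point is 1 of the 8341 genes with at least 10 CPM in a control library, by the log2 ratio of control replicate 2 to control replicate 1 on CPM + 1 (x axis) and the log2 fold change of extract over control (y axis); Cyp3a genes are named. Cyp3a16, Cyp3a41a and Cyp3a44 sit at 5.27, 4.89 and 4.03 on the x axis, and the other 4 members between -0.86 and -0.05. Control replicate 2 enters both axes, so they are not independent.

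The step along the chromosome fell between Cyp3a44 and Cyp3a11, which are neighbours on the same strand. The 4 genes on the side of Cyp3a16 summed to 942 and 14698 counts under saline and 5659 and 4384 under extract, or 19.6, 495, 131 and 92.0 CPM. The 3 genes on the other side, Cyp3a11, Cyp3a25 and Cyp3a59, summed to 4931, 3863, 7348 and 8169 CPM. The first sum lay in both extract libraries between the control libraries, and the second lay in both extract libraries above them.

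**Figure D5:**
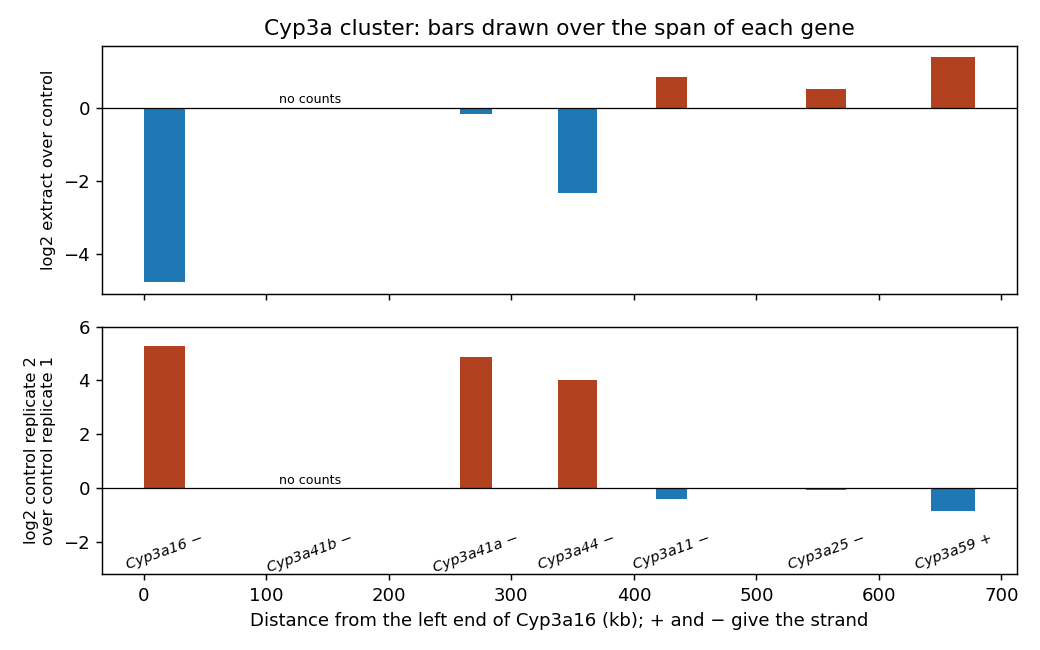
The cluster drawn to scale, with distance from the left end of Cyp3a16 (kb, x axis) and a bar over the span of each gene for the log2 fold change of extract over control (upper y axis) and for the log2 ratio of the control libraries on CPM + 1 (lower y axis). Cyp3a11, Cyp3a25 and Cyp3a59 are above 0 in the upper panel and below it in the lower one, while Cyp3a16, Cyp3a41a and Cyp3a44 show the opposite signs. The value of Cyp3a41a in the upper panel, -0.15, is small against its SE of 1.83 and turns to 0.048 with total counts as library sizes. Control replicate 2 enters both panels, and a gene high in it is drawn toward lower values in the upper one. The signs of the panels are thus not independent.

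For the family as a whole the count is dominated by Cyp3a11, which made up 83.7% and 72.7% of all Cyp3a counts under saline and 84.8% and 84.6% under extract. The 8 genes summed to 247243 and 134623 counts under saline and 332470 and 403981 under extract. In CPM on gene count totals the sum was 4576 ± 562 under saline and 8569 ± 368 under extract (SD, n = 2 each), 1.87-fold between means, and on TMM-scaled sizes it was 4842 ± 440.2 and 8091 ± 545, 1.67-fold. Both extract libraries lay above both control libraries on either scale; the sum was not tested. Cyp3a16, Cyp3a41a and Cyp3a44 took 1.66%, 4.10% and 5.16% of the family counts in control replicate 2, and 0.0190%, 0.103% and 0.259% in control replicate 1. The share of Cyp3a41a is as uncertain as its count.

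Of the genes that serve the P450 reaction, the reductase gene Por rose and was the one call of its list. Por, which passes electrons from NADPH to every microsomal P450, went from 286 and 345 CPM in control to 744 and 731 CPM under extract. The extract libraries were more than 2-fold above each control library. The log2 fold change of Por was 1.22 (SE 0.16, edgeR adjusted p = 0.00694), and it passed in all 15 alternative settings. Of 16 genes for electron supply and haem, 1 was higher, 0 were lower and 15 did not pass, with 4 at an unadjusted p under 0.05 and a median of 0.14. Among all genes tested, 4.91% were higher and 3.63% lower, so 1 call in 16 lies near the general share. Cyb5a, which donates the second electron, lay at 635 and 859 CPM under saline and 757 and 896 CPM under extract (log2 fold change 0.15, edgeR adjusted p = 0.717). Alas1, the first enzyme of haem synthesis, had 128 and 295 CPM under saline and 211 and 297 CPM under extract (0.26, adjusted p = 0.788). The values of Alad (0.50) and Uros (-0.48), later enzymes of haem synthesis, and of Hmox1 (-1.64), which breaks haem down, had edgeR adjusted p of 0.119, 0.157 and 0.0873. DESeq2 called 1 gene of the list lower, where it called 909 lower of all 14538 genes it tested. The counts of the list also changed when either control library was left out.

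Receptors and transcription factors that act on Cyp3a genes went both ways. Of 25 tested, 5 were higher (4.91% over all genes), 2 lower (3.63%) and 18 did not pass, with a median log2 fold change of -0.09. Nr1i2 (PXR), the receptor that senses many drugs, had 85.0 and 88.9 CPM under saline and 105 and 123 CPM under extract. It lay above control in both but did not pass (log2 fold change 0.39, SE 0.14, edgeR adjusted p = 0.163), except without control replicate 2 (adjusted p = 0.0394). Nr1i3 (CAR), the second xenobiotic receptor, had 55.4 and 125.6 CPM under saline and 75.8 and 98.3 CPM under extract, and its log2 fold change of -0.05 (adjusted p = 0.962) was -0.53 without control replicate 1 and 0.66 without control replicate 2, past the threshold in both. Hnf4a, a liver factor that drives Cyp3a genes, had a log2 fold change of -0.40 (SE 0.15, adjusted p = 0.158) and was past the threshold, as lower, without control replicate 2 (-0.46, adjusted p = 0.0418).

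Among the regulators called, Dbp (log2 fold change 6.04, edgeR adjusted p = 0.0123) and Tef (2.93, adjusted p = 0.00798), clock output activators of the PAR bZIP class, and Cebpb (0.90, adjusted p = 0.0120), a C/EBP family activator, were higher. Nfil3 (-2.15, adjusted p = 0.00151), a repressor on the same DNA element as Dbp and Tef, and Nr0b2 (-0.97, adjusted p = 0.0299), the corepressor SHP, were lower. Tef had 38.5 and 19.6 CPM under saline and 231 and 213 CPM under extract, while Nfil3 had 60.8 and 79.6 CPM under saline and 14.7 and 16.9 CPM under extract. For both genes the groups were far apart and each passed in all 15 alternatives. The list had 1 higher and 1 lower without extract replicate 1, and 1 higher and 2 lower when replicate 2 was left out instead; Dbp and Cebpb were not called in either fit and Nr0b2 was not called without extract replicate 1. Dbp was also not called without a filter on low counts (adjusted p = 0.0825), and Nr0b2 not with total counts (0.0610). Without control replicate 1 the counts were 6 higher and 6 lower and without control replicate 2 they were 9 and 3. The labels give no collection time, so time of day and the extract cannot be told apart in these clock outputs or in the Cyp3a genes they act on.

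Among other known targets of PXR and CAR, Gstm1, Abcc2 and Aldh1a7 rose. Of 22 tested, 3 were higher (4.91% over all genes), 0 lower (3.63%) and 19 did not pass, with 10 at an unadjusted p under 0.05 and a median log2 fold change of 0.62. Gstm1, a glutathione transferase, rose from 1137 and 897 CPM to 5345 and 5264 CPM (log2 fold change 2.38, edgeR adjusted p = 0.00107). Abcc2, the canalicular exporter of conjugates, rose from 428 and 390 CPM to 813 and 621 CPM (0.81, adjusted p = 0.0390), and Aldh1a7, an aldehyde dehydrogenase, from 180 and 195 CPM to 279 and 313 CPM (0.66, adjusted p = 0.0379). Cyp2c37, a P450 of the Cyp2c cluster, had a log2 fold change of -1.42 (adjusted p = 0.0544), which was past the threshold in 7 of 15 alternatives. With either extract library left out 1 gene of the list, Gstm1, was higher, 15 were higher and 2 lower without control replicate 1, and 11 and 4 without control replicate 2. DESeq2 called 8 higher and 1 lower, where it called 1027 higher and 909 lower of all 14538 genes it tested. The control libraries differed in this list: 1 gene was over 2-fold higher and 7 were over 2-fold lower in control replicate 2 than in control replicate 1.

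The steps that compete with or follow Cyp3a in the handling of the alkaloid held more calls. Of 30 genes tested, 11 were higher (4.91% over all genes), 2 lower (3.63%) and 17 did not pass, with a median of 0.64. Gstm3 and Gstp1, which conjugate electrophiles to glutathione, rose by 4.63 and 2.23 on the log2 scale (edgeR adjusted p = 0.000523 and 0.000824), and the carboxylesterase gene Ces2e rose by 3.68 (adjusted p = 0.000932). Gstm3 had 56.7 and 34.7 CPM under saline and 1150 and 1115 CPM under extract, and Ces2e had 74.9 and 122 CPM under saline and 1271 and 1260 CPM under extract. For both, the groups were far more apart than the libraries within them, and Gstm3, Gstp1 and Ces2e passed in all 15 alternatives. Ces1e, another carboxylesterase, fell by 1.08 (adjusted p = 0.0329). With total counts as library sizes, which move the median of all genes to 0.16, Ces1e did not pass. It was also not called without extract replicate 1. The counts ran from 7 higher (without extract replicate 2) to 20 higher (without control replicate 2), and from 0 to 4 lower.

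Since Cyp3a41a, Cyp3a41b and Cyp3a44 are female-biased in mouse liver, the other sex-biased genes were read beside them. Of 25 other female-biased genes, 1 was higher (4.91% over all genes), 12 lower (3.63%) and 12 did not pass, with a median log2 fold change of -1.32. A1bg (-3.61), the sulfotransferase gene Sult2a1 (-6.16) and the P450 genes Cyp2b13 (-3.36) and Cyp2c40 (-1.87) fell, with edgeR adjusted p from 0.000206 to 0.00341, and Cyp2a4 rose (1.30, adjusted p = 0.00509). Sult2a1, Cyp2b13 and Cyp2a4 belong to families of near copies, so their counts are less certain. A1bg had 182 and 160 CPM under saline and 14.4 and 13.6 CPM under extract, so the control libraries were alike in this gene while they differed 17.5-fold in Cyp3a44. Of the 25, 5 were over 2-fold higher and 2 over 2-fold lower in control replicate 2 than in control replicate 1. The share of all genes over 2-fold apart between the control libraries was not counted, so such counts have no background for any list. The count of lower genes ran from 8, with either extract library left out, to 18, without control replicate 1, and 5 genes were higher without control replicate 2.

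Of 22 male-biased genes tested, 4 were higher (4.91% over all genes), 3 lower (3.63%) and 15 did not pass, with a median of -0.57. Mup20, a major urinary protein gene, rose by 3.25 and Gstp1 by 2.23, while Serpina1e (-5.65), Selenbp2 (-1.27) and C6 (-1.32) fell, with edgeR adjusted p from 0.000105 to 0.0137. Mup20 and Serpina1e also have near copies. In control replicate 2, 7 of the male-biased genes were over 2-fold higher than in control replicate 1 and 0 over 2-fold lower. The count of lower genes was 12, in place of 3, without control replicate 1, and that of higher genes 6, in place of 4, without control replicate 2. DESeq2 called 6 lower, where it called 909 lower of all 14538 genes it tested. C6 was not past the threshold without extract replicate 2 (adjusted p = 0.0689).

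Growth hormone signalling, which sets the sex bias of many of these genes, had 1 gene higher (4.91% over all genes), 4 lower (3.63%) and 6 not past the threshold of 11 tested, with a median of -0.38. Socs3, a feedback inhibitor, rose by 1.53 (edgeR adjusted p = 0.00749), and the receptor gene Ghr (-0.88), its target Igfals (-1.16) and the transducer Stat5b (-0.79) fell, with adjusted p from 0.0140 to 0.0318. Ghr had 521 and 516 CPM under saline and 269 and 296 CPM under extract, so the control libraries did not differ in it as they did in Cyp3a41a. With either extract library left out 0 genes of the list were lower, and Stat5b was also not called with total counts as library sizes (adjusted p = 0.0815).

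Of 19 acute phase and cytokine genes tested, 2 were higher (4.91% over all genes), 2 lower (3.63%) and 15 did not pass, with a median of -0.08. Fgb, a fibrinogen chain (-1.01, edgeR adjusted p = 0.0124), and the cytokine gene Il1b (-2.72, adjusted p = 0.0184) were lower, and the orosomucoid gene Orm2 (1.23, adjusted p = 0.0272) and Socs3 were higher. Inflammation is known to lower Cyp3a11 in mouse liver. With either extract library left out 0 genes of the list were lower. Orm2 was not called without extract replicate 1 (0.86, adjusted p = 0.109), which left 1 higher. Of the list, 4 were lower without control replicate 1 and with the replicate block, and 6 were higher and 6 lower without control replicate 2.

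Cyp3a11 is known as a gene of hepatocytes near the central vein. Of 26 pericentral genes, 2 were higher (4.91% over all genes), 0 lower (3.63%) and 24 did not pass, with a median of -0.03. Rnf43 (0.80, edgeR adjusted p = 0.0345) and Ahr (0.69, adjusted p = 0.0399) rose, and Rhbg (-0.91, adjusted p = 0.0576) did not pass. DESeq2 called 4 higher and 3 lower, where it called 1027 higher and 909 lower of all 14538 genes it tested. Without control replicate 1 the counts were 4 higher and 9 lower, and without control replicate 2 they were 7 and 3. With extract replicate 1 left out they were 0 and 0, and with extract replicate 2 left out 1 and 0. Neither Rnf43 nor Ahr was called without extract replicate 2 or without extract replicate 1 (adjusted p from 0.0778 to 0.348). Of 20 periportal genes, 0 were higher (4.91% over all genes), 5 lower (3.63%) and 15 did not pass, with a median of -0.55. The peptidase gene Ctsc (a mean of 203 CPM under saline and 50.9 CPM under extract), the histidine enzyme gene Hal (-1.95), Hsd17b6 (-1.46) and the immunoglobulin receptor gene Pigr (-0.91) fell, with edgeR adjusted p from 0.000651 to 0.0166. The count of lower periportal genes moved both down and up as 1 library was left out. DESeq2 called 9 of them lower and 0 higher, where it called 909 lower and 1027 higher of all 14538 genes it tested. Pigr was not called without extract replicate 1 (adjusted p = 0.129) or without extract replicate 2 (0.177).

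Markers of several liver cell types moved with the treatment, beside 4.91% of all genes tested higher and 3.63% lower. Hepatocyte markers, of the cells that make Cyp3a, had 0 higher, 4 lower and 9 not past the threshold of 13, with 9 at an unadjusted p under 0.05 and a median of -0.58; Serpina1c (-1.57), Serpina1a (-1.18), Apoa1 (-0.87) and Ahsg (-0.75) fell. All 8 Kupffer cell markers and 6 of 8 sinusoidal endothelial markers were lower, with summed levels of 543 and 454 CPM against 36.5 and 41.0 CPM, and 345 and 332 CPM against 195 and 191 CPM. Of 8 stellate cell markers 2 were lower, and of 7 cholangiocyte markers 1 was higher and 1 lower, with summed levels of 44.5 to 51.7 CPM in all libraries. Of the 12 markers of small intestine, where Cyp3a11, Cyp3a13 and Cyp3a25 are also expressed, Alpi, Sis, Cdx2 and Muc2 had 0 counts in every library and 3 could be tested, with 0 past the threshold. These 3, Apoa4, Fabp2 and Lgals4, were each over 2-fold higher in control replicate 2 than in control replicate 1. They thus stood higher in the library that was high in Cyp3a16, Cyp3a41a and Cyp3a44. The summed level of the list was 150 and 341 CPM under saline and 247 and 186 CPM under extract. Apoa4 gave 128 and 290 CPM of it under saline and 230 and 160 CPM under extract. Because Apoa4 is also on the list of periportal hepatocyte genes, the sum does not measure intestine alone. The part of these differences in the levels of Cyp3a was not tested.

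Of the genes beside the Cyp3a loci, 0 rose and 4 fell, where 4.91% and 3.63% of all genes tested did. Within 200 kb of a member 16 other genes were tested, and 12 did not pass, with 5 at an unadjusted p under 0.05 and a median of -0.19. At the ends of the cluster, Zfp655 (-0.38), Zscan25 (0.04), Rnf6 (0.05) and Cdk8 (0.11) did not pass. The 4 called genes were all near Cyp3a13: the paired immunoglobulin-like receptor genes Pilra (-1.93), Pilrb1 (-2.42) and Pilrb2 (-2.06), and the zinc finger gene Zkscan1 (-0.74), with edgeR adjusted p from 0.0133 to 0.0368; each lost its call with either extract library left out, Zkscan1 also with total counts as library sizes and Pilrb2 also in limma-voom. The other 8, Nyap1, Tsc22d4, Ppp1r35, Mepce, Zcwpw1, Gjc3, Azgp1 and Zscan21, had log2 fold changes from -0.78 to 0.02. Tsc22d4, at -0.11, was 0.55 without control replicate 1 and -0.55 without control replicate 2, past the threshold in both.

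The genes whose 4 values lay nearest to a member were searched among 9463 genes of at least 5 CPM, by the Euclidean distance of log2(CPM + 1) centred on its mean over the 4 libraries. For Cyp3a11 they were Gcnt2 (distance 0.066), Tbc1d24 (0.082) and Rlf (0.083), for Cyp3a13 Slc4a2 (0.015), Uroc1 (0.034) and Eri1 (0.036), and for Cyp3a25 Polg2 (0.055), Pla2g6 (0.062) and Morc3 (0.088). Gcnt2, for example, had 24.2 and 18.0 CPM under saline and 35.0 and 39.5 CPM under extract. With 4 points many genes lie close, and the lists describe the shape of the values only.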

How the data were processed

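Per the submitters' processing notes, the tools were CASAVA 1.8, HISAT2 2.1.0 and HTSeq and the build was mm10; roles and settings are not stated there. The deposited files hold raw counts per gene symbol for each library, made by the authors with no normalization, and close with 5 rows that name no gene, which stayed out of library sizes and tests. From the counts, genes kept by filterByExpr were fitted with edgeR 4.0.16 (R 4.3.3; TMM scaling, robust quasi-likelihood fit, 2-sided F test, Benjamini-Hochberg adjustment, threshold 0.05). The standard error is the size of the log2 fold change over the square root of F. A chi-square per degree of freedom of 118.1 (control pair) and 29.1 (extract pair) showed that libraries of a group differ beyond sampling noise. Symbols matched RefSeq for 99.2% of genes.

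The members, lists and tests were chosen with earlier results of these data known. From each list described, up to 4 genes with the smallest p and at least 1 CPM were named, with up to 2 called in the opposite direction, besides the members, Por, Cyb5a, Nr1i2, Nr1i3, Hnf4a, Alas1, tested genes within 200 kb and the 3 nearest patterns. For the 6 cell type marker lists only hepatocyte genes were named by this rule. Small intestine markers were named where they had 0 counts in every library or could be tested. One gene named by this rule is not reported here. Alternatives were DESeq2 1.42.0, limma-voom (limma 3.58.1), other scalings and filters, a fit without the robust step, a replicate block, each library left out, and near copies summed. The fit was tested on simulated counts: of 50 genes each, 46 changed 8-fold, 32 changed 4-fold, 16 changed 2-fold and 1 changed 1.5-fold were recovered. Among the 13963 genes there were also 17 false calls, more than the 16 true calls at 2-fold. In this simulation false calls thus made up a larger share of all calls than the adjusted p threshold is meant to allow. The calls of Cyp3a11 and Cyp3a59 lay just under that threshold (edgeR adjusted p = 0.0416 and 0.0399). Intervals and limits for a count of 0 cover counting error only.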

Additional observations from a re-analysis of the deposited data

How the results depend on the processing

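The count of members called higher, 2 of 7, was 1 without the robust step, with the replicate block and with near copies summed, and 0 to 5 when 1 library was left out; 0 to 3 were then called lower. Cyp3a11 had a log2 fold change of 0.85 without the robust step (edgeR adjusted p = 0.0569) and 0.67 to 1.06 with a library left out. Cyp3a25 was called with total counts (0.69) and in DESeq2's Wald test (0.53), and lay between 0.33 and 0.67 with a library left out. Cyp3a16 ran from -5.78 to 0.49, Cyp3a44 from -3.25 to 0.88, Cyp3a41a from -1.12 to 4.01 and Cyp3a59 from 1.03 to 1.91. Cyp3a41a was 0.048 with total counts and 1.60 in limma-voom. The cause was not tested. Over all genes, 233 to 1826 were higher and 134 to 1782 lower with a library left out, and DESeq2 called 909 lower. The summed extract level was 8091 CPM on TMM-scaled sizes. With total counts the median of all genes was 0.16, and the signs turned for Nr1i3 (0.12), Xist (0.11), Tsc22d4 (0.049), Ppp1r35 (0.024), Mepce (0.037) and Zscan21 (0.13); Nr1i3 was 0.056 in limma-voom. Upper-quartile scaling gave -0.014 for Gjc3 and -0.0043 for Zscan25. With a library left out, Nr1i3 ran from -0.53 to 0.66, Cyb5a from -0.056 to 0.38, Alas1 from -0.22 to 0.99, Xist from -0.29 to 0.22, Tsc22d4 from -0.55 to 0.55, Ppp1r35 from -0.36 to 0.093, Gjc3 from -0.37 to 0.63, Zscan21 from -0.17 to 0.074, Zscan25 from -0.15 to 0.24 and Rnf6 from -0.081 to 0.20. Of 943 refits of genes that are not members, 845 kept direction and side of the threshold.

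The replicate number as a block gave a log2 fold change of 1.34 for Cyp3a41a, 0.049 for Nr1i3 and 1.46 for Cyp3a59 (edgeR adjusted p = 0.0533). Deviations of same-numbered libraries from their group means correlated at r = 0.22 across genes, but with 2 pairs and no label that ties the numbers to a batch, the libraries share only a number. The block called 902 genes higher and 682 lower. With 2 libraries a group, differences under 2-fold were rarely called in simulated data, so a member not called can differ by that much. Cyp3a16, Cyp3a41a and Cyp3a44, with SEs of 2.52, 1.83 and 1.65 on the log2 scale, can differ by far more.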

Other observations

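Genes that share the pattern of Cyp3a16, Cyp3a41a and Cyp3a44 were looked up after their values had been seen. Besides these 3, genes over 10-fold higher in control replicate 2 than in control replicate 1 included the major urinary protein genes Mup7 (0.479 against 126 CPM), Mup12, Mup13, Mup14, Mup15 and Mup18, the steroid dehydrogenase gene Hsd3b5 (0.646 against 56.9 CPM), Serpina12 and the sulfotransferase gene Sult3a1 (25.2 against 272 CPM). Mup7 and Hsd3b5 are known as male-biased and Sult3a1 as female-biased in mouse liver, so genes of both kinds were high in the same library. The Mup genes are near copies of each other, and their counts are uncertain. In the extract libraries Hsd3b5 had 0.533 and 0.462 CPM and Sult3a1 had 6.30 and 9.30 CPM, so both stayed near or under control replicate 1, as Cyp3a16 did (1.69 and 1.07 CPM) and Cyp3a41a did not (99.6 and 71.7 CPM).

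In the other direction, Cyp2b10, a target of CAR, had 55.7 CPM in control replicate 1 and 9.89 CPM in control replicate 2, and Cyp2c55 had 26.4 and 3.63 CPM. The extract libraries lay at 19.4 and 15.1 CPM for Cyp2b10 and at 24.2 and 29.7 CPM for Cyp2c55. Glul, the glutamine synthetase of hepatocytes around the central vein, had 382 CPM in control replicate 1, 1529 CPM in control replicate 2 and 490.4 and 533 CPM in the extract libraries. By the distance used for like patterns, the genes nearest to Cyp3a16 were Mup12 (0.304), Hsd3b5 (0.403) and Mup15 (0.621), those nearest to Cyp3a59 were Gse1 (0.117), Uap1l1 (0.126) and Jun (0.127), and those nearest to Cyp3a41a were Mup14 (0.955), Rgs16 (1.55) and Acnat2 (1.63), at far larger distances than for Cyp3a11.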
